A study of Mus musculus with 162 samples.

Results

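The stefin A cluster is a run of closely related genes on mouse chromosome 16, and 7 of them were described here in cheek skin treated with MC903 or with ethanol: Stfa1, Stfa2, Stfa3, Stfa2l1, BC100530, BC117090 and Gm5483. They were chosen by name and by their cpm (counts of a gene scaled to the total on all genes of its library, the usual CPM unit), which were higher with MC903 in earlier results from the same libraries. All 7 were among the 46078 genes counted. Since the difference between MC903 and ethanol skin chose the genes, it is given below as a description with no test.

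MC903 is a vitamin D analog that produces a dermatitis resembling atopic dermatitis when painted on the skin. Cheeks of adult male C57BL/6 mice, 8 to 12 weeks old by the study's methods, received a daily drop of 20 µL, either 0.2 mM MC903 or the ethanol it was dissolved in, and RNA of skin and trigeminal ganglion was sequenced. Spinal cord came from mice treated on the shaved back, by the study's methods with a larger volume. There were 162 libraries in all. Skin of 61 libraries was used here. Wild-type mice without injection gave 4 MC903 and 4 ethanol libraries at day 1, taken hours after the first treatment, 3 and 2 at day 2, 3 and 3 at day 5, and 5 and 6 at day 8. The last carry labels of 2 styles and are called cohort A (3 and 3) and cohort B (2 and 3). At day 8 there were also wild-type mice injected daily with 250 µg of aGr1, an antibody against a surface protein of neutrophils (4 and 4), or with PBS, its vehicle (2 and 3), BLT1 KO mice, which lack the leukotriene B4 receptor gene Ltb4r1 (3 and 3), and TSLPR KO mice, which lack Crlf2, a subunit of the receptor for the cytokine TSLP (3 and 2). TSLPR KO mice were measured again at day 12 (4 and 3). Both knockouts are carried by every cell of the animal. Wild-type skin of day 12, 9 libraries, was left out. The labels do not say which libraries come from 1 mouse or 1 litter, so that the errors below measure the spread between libraries.

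Stefin A is a small protein of the cystatin family. Cystatins occupy the active site cleft of papain-like cysteine proteases, the lysosomal cathepsins, and block them reversibly, and the stefins are those that stay inside the cell. In skin, stefin A is made by keratinocytes and becomes part of the cornified envelope, the crosslinked protein shell of the outermost cells, and loss of its human counterpart CSTA causes a peeling skin disease. Humans have that gene alone, whereas the mouse carries a cluster of copies, some of which are also known from neutrophils.

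The members lay within 298582 bases (chr16:36156811-36455392, GRCm38), in the order Stfa2l1, Gm5483, Stfa1, BC117090, BC100530, Stfa2 and Stfa3. Stfa2l1, Gm5483 and Stfa1 are on the plus strand and the other 4 on the minus strand, and the annotation (GENCODE M21) calls all 7 protein coding. How alike they are decides how well reads of 50 bases can be assigned to single members. The second coding exon, 102 bases in each member, shows it. It is printed from the annotated transcripts, 5′ to 3′ on the coding strand, with capitals where a base differs from Stfa1.
Stfa1: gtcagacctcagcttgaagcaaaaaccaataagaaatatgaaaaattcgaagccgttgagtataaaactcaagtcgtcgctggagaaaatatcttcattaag
BC100530: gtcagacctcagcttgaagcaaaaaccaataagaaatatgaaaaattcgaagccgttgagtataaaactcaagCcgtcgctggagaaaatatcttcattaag
BC117090: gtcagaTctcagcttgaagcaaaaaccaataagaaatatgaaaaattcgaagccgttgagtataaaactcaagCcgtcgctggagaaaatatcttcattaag
Stfa2: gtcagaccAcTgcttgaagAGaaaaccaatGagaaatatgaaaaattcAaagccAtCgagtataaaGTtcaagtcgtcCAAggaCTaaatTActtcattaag
Stfa2l1: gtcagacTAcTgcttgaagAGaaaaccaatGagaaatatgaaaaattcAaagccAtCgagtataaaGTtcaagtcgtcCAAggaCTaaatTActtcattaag
Stfa3: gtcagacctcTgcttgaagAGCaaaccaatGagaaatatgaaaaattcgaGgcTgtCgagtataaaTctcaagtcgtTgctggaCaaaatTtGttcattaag
Gm5483: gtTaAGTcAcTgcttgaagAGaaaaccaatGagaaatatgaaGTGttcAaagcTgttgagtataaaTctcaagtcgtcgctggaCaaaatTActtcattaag
Stfa1 differed from BC100530 at 1 of these 102 bases and from BC117090 at 2, against 13 for Stfa3, 17 for Stfa2 and 18 for Stfa2l1 and for Gm5483. The exons lie at chr16:36280466-36280567 (Stfa1), chr16:36364212-36364313 (BC100530), chr16:36322921-36323022 (BC117090), chr16:36405130-36405231 (Stfa2), chr16:36159946-36160047 (Stfa2l1), chr16:36452151-36452252 (Stfa3) and chr16:36186364-36186465 (Gm5483). Over 288 bases of coding sequence shared by all, Stfa1 and BC100530 were 97.9% identical, BC100530 and BC117090 95.5%, Stfa1 and BC117090 93.8%, and Stfa2 and Stfa2l1 96.9%. All other pairs of members were between 77.1% and 83.3% identical. The cluster thus held a trio (Stfa1, BC100530, BC117090), a pair (Stfa2, Stfa2l1) and 2 members that stood alone (Stfa3, Gm5483). Of all stretches of 50 bases in the transcripts of a member, the share found in no other annotated gene was 100.0% for Stfa3, 85.8% for Gm5483, 84.1% for Stfa2, 77.5% for Stfa1, 75.4% for Stfa2l1, 66.3% for BC117090 and 63.8% for BC100530. Reads from the remaining stretches match more than 1 gene, so the split of counts within the trio and within the pair is uncertain.

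The starts of the genes were alike too. The 100 bases before the start site are shown for the 6 members that had an entry in the RefSeq promoter table (GRCm38.p6), because the members moved together across the skin groups. Capitals mark the letters TTTAAA.
Stfa1: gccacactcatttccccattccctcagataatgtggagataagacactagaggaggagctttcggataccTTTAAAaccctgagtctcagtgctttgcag
BC100530: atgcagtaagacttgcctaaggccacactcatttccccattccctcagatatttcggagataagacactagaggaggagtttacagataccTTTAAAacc
Stfa2: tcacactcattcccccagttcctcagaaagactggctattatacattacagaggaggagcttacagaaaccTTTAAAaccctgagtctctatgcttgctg
Stfa2l1: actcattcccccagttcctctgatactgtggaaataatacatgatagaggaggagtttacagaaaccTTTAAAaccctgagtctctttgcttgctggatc
Stfa3: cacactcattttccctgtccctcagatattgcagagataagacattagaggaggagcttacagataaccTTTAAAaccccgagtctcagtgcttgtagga
Gm5483: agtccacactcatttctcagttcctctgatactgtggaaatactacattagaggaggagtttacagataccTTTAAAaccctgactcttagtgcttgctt
The windows are chr16:36277048-36277147 (Stfa1), chr16:36367571-36367670 (BC100530, listed as Cstdc5), chr16:36408364-36408463 (Stfa2), chr16:36156711-36156810 (Stfa2l1), chr16:36455393-36455492 (Stfa3) and chr16:36184112-36184211 (Gm5483, listed as Cstdc4). TTTAAA was looked for after these sequences had been read. On either strand of the window from 250 bases before to 50 bases after the start it occurred in 6 of 6 members and in 13.2% of 27025 promoters. It began 29 to 33 bases before the RefSeq start in 5 members and 9 bases before it in BC100530. GENCODE M21 begins Stfa1 (36276951), BC100530 (36367748) and Stfa2 (36408457) further upstream, so that by that annotation their TTTAAA lies inside the gene. The usual TATA box letters, TATAAA, were in 0 of the 6 windows (14.2% of all promoters). The AP-1 letters TGANTCA were in the window of Stfa3 alone, 29 bases after the start (7.89% of all promoters). These matches describe letters and not binding.

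Depth and identity of the libraries set what can be read from the counts. Counts on genes ran from 17431296 to 67342879 in the 61 skin libraries (median 28927563), and no more than 3 counts were treated as undetectable. All 16 keratinocyte marker genes, among them Krt14, Krt6b and Krt6a, were found in every skin group. They summed to 5735 to 20251 cpm in ethanol skin and, from day 5 on, to 25302 to 61003 cpm in MC903 skin. MC903 library 3 of day 2 stood apart with 1588 cpm of 8 sensory neuron genes, against 16.2 and 17.5 in the other 2, and with 8393 cpm of keratinocyte genes against 20736 and 21509. In the knockouts the targeted gene was lower than in wild-type skin: with MC903, Ltb4r1 was at 10.6 to 15.1 cpm in BLT1 KO and 33.5 to 77.6 in wild-type day 8 skin, and Crlf2 at 0.206 to 0.230 cpm in TSLPR KO and 4.19 to 12.3 in wild-type.

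From day 2 on, every member was higher in every MC903 library than in any ethanol library of its group, and the fitted folds of wild-type skin ran from 49.2 at day 2 (Stfa2) to 724 at day 5 (BC100530). BC100530, the member with the most counts (1250623 over the skin libraries), had 1.42 to 5.35 cpm in the 6 ethanol libraries of wild-type day 8, with a median of 3.39. In the 5 MC903 libraries it had 462, 626, 323, 208 and 238 cpm. The lowest MC903 library was thus far above the highest ethanol library, and the 3 libraries of cohort A were above the 2 of cohort B. The fitted log2 fold change was 6.69 ± 0.41 (SE, n = 5 and 6), 104-fold. Stfa1, also of the trio, had 270, 371, 190, 121.6 and 149 cpm with MC903 and 0.805 to 2.60 with ethanol (median 1.79), with a log2 fold change of 6.88 ± 0.36. BC117090 had 70.2, 96.8, 52.3, 34.8 and 43.4 cpm against 0.161 to 0.856 (median 0.525), with a log2 fold change of 6.83 ± 0.38. Within the trio the libraries kept the same order, A2 highest and B1 lowest.

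Of the pair, Stfa2 had 5839, 3173, 4111, 1867 and 2876 counts in MC903 skin of day 8, which were 63.9 (B1) to 173 cpm (A1), and 1.24 to 2.50 cpm in ethanol skin (median 1.73), a log2 fold change of 5.86 ± 0.25. Stfa2l1 had 28.5, 12.997, 16.7, 8.42 and 12.4 cpm against 0.134 to 0.407 (median 0.265), a log2 fold change of 5.80 ± 0.34. Here library A1 was the highest and A2 only the third, unlike in the trio. Stfa3, the member whose reads are not shared with any other gene, had 403, 310, 309, 203 and 187 cpm against 1.61 to 4.56 (median 3.08), a log2 fold change of 6.49 ± 0.28. Gm5483 was at 2 counts or fewer in all 6 ethanol libraries and at 5.80, 1.67, 5.71, 0.650 and 1.70 cpm with MC903. Against the floor of 3 counts per library it was at least 36.5-fold higher. Of all 26175 genes tested at day 8, 6.95% had every MC903 library above every ethanol library, and 7 of 7 members did.

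**Figure D1:**
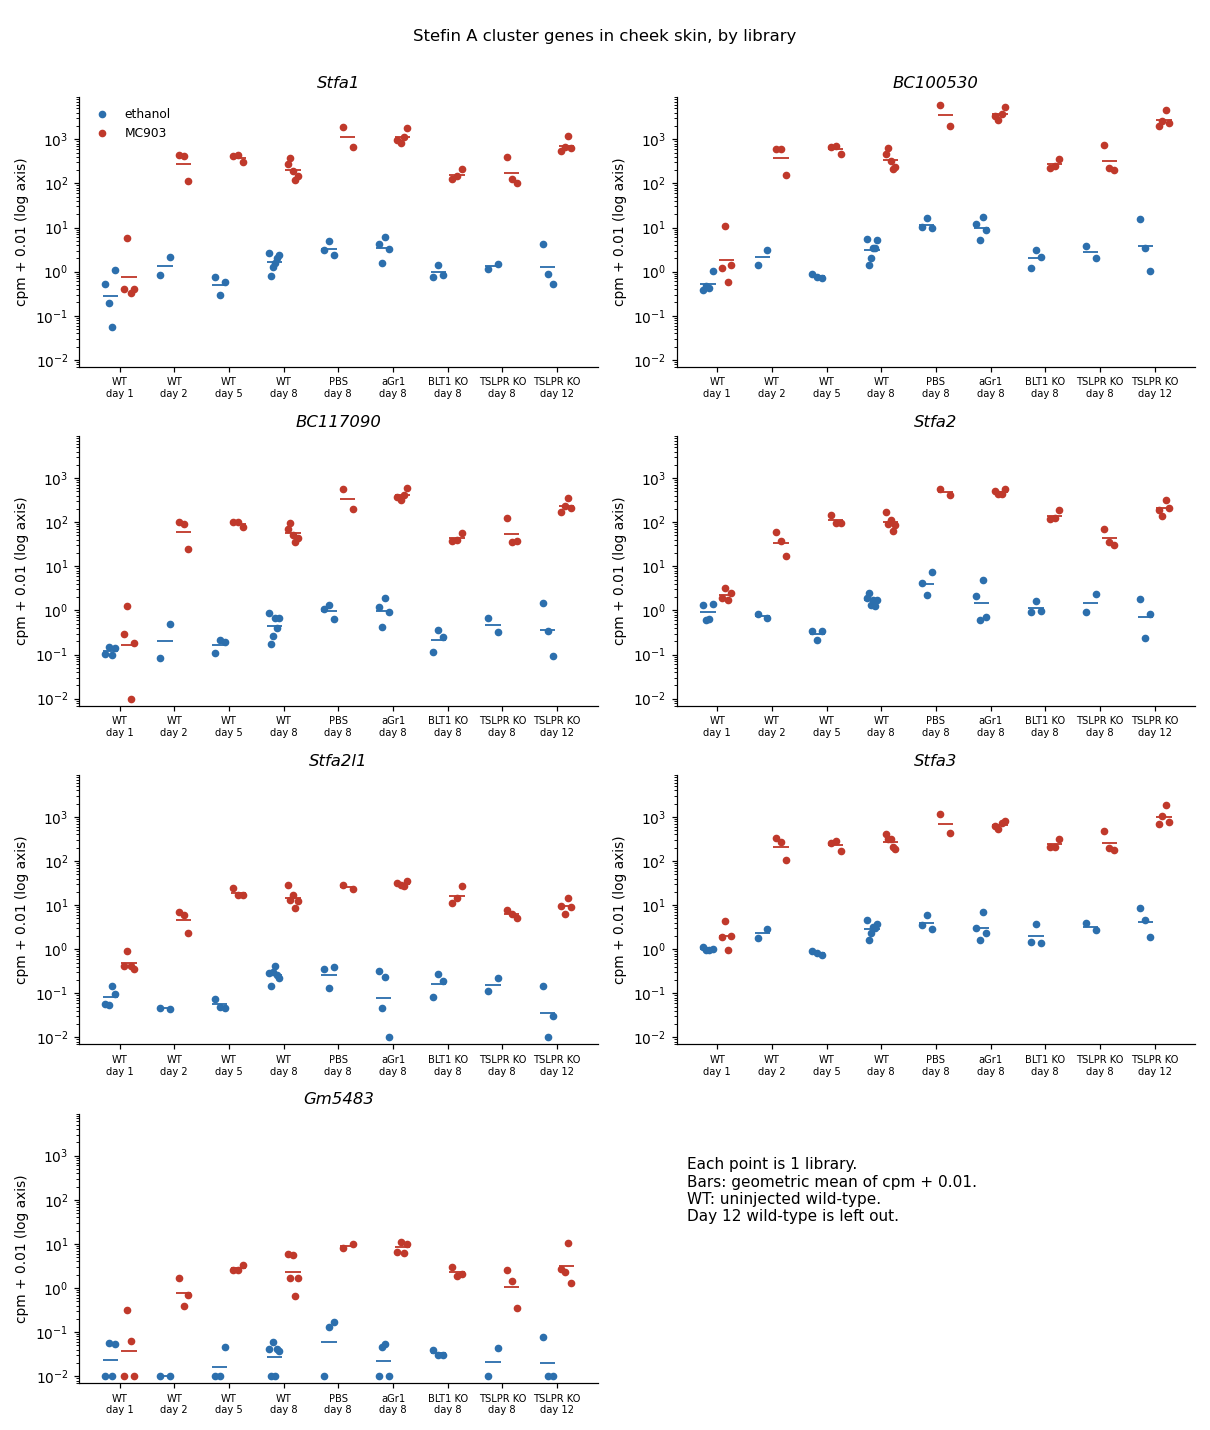
Each panel shows 1 member in skin: the y axis is cpm + 0.01 on a log axis, the x axis the 9 skin groups, each point 1 library (blue ethanol, red MC903) and each bar the geometric mean of its group. From day 2 on the red and blue points do not overlap in any group. At day 1 they do for 5 of the 7 members.

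Hours after the first treatment the difference was small in most libraries. At day 1, 6 members reached the 10 counts needed for the fit, and 2 of these 6 (Stfa2 and Stfa2l1) had all MC903 libraries above all ethanol libraries, against 7.48% of 24749 genes. Stfa2 had 1.95, 3.14, 1.71 and 2.45 cpm with MC903 and 1.29, 0.593, 0.631 and 1.39 with ethanol, a log2 fold change of 1.16 ± 0.36. Stfa2l1 had 0.402, 0.890, 0.415 and 0.350 cpm with MC903 and at most 3 counts in each ethanol library, so that it was at least 3.81-fold higher. For these 2 genes all 4 MC903 libraries were higher, but by little. BC100530 had 1.205, 10.9, 0.571 and 1.40 cpm with MC903 and 0.368, 0.456, 0.406 and 1.04 with ethanol. Stfa1 had 0.402, 5.65, 0.312 and 0.393 cpm with MC903 and 0.506, 0.183, 0.0451 and 1.09 with ethanol. In both genes MC903 library 2 was high alone and the other 3 lay within or just above the ethanol range. The median log2 fold change of the 6 members was 1.78, and 0.71 without MC903 library 2, while that of Stfa1 went from 1.75 ± 1.08 to -0.42. BC117090 was at least 3.18-fold higher against the floor, on 24 counts in library 2 and 0 to 5 in the other 3, and Gm5483 had at most 6 counts in any library. Without MC903 library 3, 5 members instead of 2 had groups that did not overlap. Leaving out a library can only add such genes, and the share of all genes without library 3 is not given here.

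At the next time point the difference was large. At day 2 all 7 members had MC903 libraries above ethanol libraries (10.6% of 24580 genes). BC100530 had 592, 153 and 597 cpm in MC903 libraries 1, 2 and 3 and 1.44 and 3.08 in the ethanol libraries, a log2 fold change of 7.50 ± 0.96. Stfa1 had 423, 114.3 and 445 cpm against 0.849 and 2.11, a log2 fold change of 7.65 ± 0.98. Stfa3 had 272, 106 and 334 cpm against 1.81 and 2.83 (6.55 ± 0.71). Library 2 was the lowest of the 3 in every one of these, and library 3, the one with neuronal RNA, was not lower than library 1. Stfa2 reached 38.1, 17.5 and 60.6 cpm against 0.812 and 0.657 (5.62 ± 0.65), and Stfa2l1 5.94, 2.30 and 7.10 cpm against 1 count in each ethanol library (at least 47.7-fold higher). BC117090 had 89.3, 25.1 and 100.5 cpm against 0.0738 and 0.484 (7.83 ± 1.11). Gm5483, with 9 to 48 counts against none, was at least 8.60-fold higher. Without library 3 the median log2 fold change of the members was 6.85, with 7 members still above ethanol.

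At day 5 the fitted folds of the 5 members detected in ethanol skin were the largest of the 4 days. BC100530 had 652, 704 and 471 cpm with MC903 and 0.854, 0.763 and 0.723 with ethanol, a log2 fold change of 9.50 ± 0.31. Stfa1 had 410, 443 and 298 cpm against 0.755, 0.281 and 0.578 (9.34 ± 0.46). Stfa2 had 145, 96.9 and 98.3 cpm against 0.328, 0.201 and 0.325 (8.49 ± 0.34), and Stfa3 251, 289 and 171 cpm against 0.887, 0.803 and 0.723 (8.10 ± 0.31). With MC903 these genes were near their day 8 level or above it, while ethanol skin held less of each than at day 8. BC117090 had 98.4, 99.7 and 78.2 cpm (9.05 ± 0.32), Stfa2l1 24.5, 16.9 and 17.2 cpm (at least 179-fold higher) and Gm5483 2.51, 2.55 and 3.34 cpm (at least 25.7-fold higher). All 7 members had groups that did not overlap, against 20.7% of 24226 genes. The median log2 fold change of the members was 7.50 at day 2 (6.55 with undetectable members at their lower bound), 8.49 at day 5 and 6.66 at day 8 (6.49), where the median of all genes was 0.09, -0.03 and -0.03. The day 5 median was 9.27 without ethanol library 3. At day 8 it was 7.14 in cohort A and 5.84 in cohort B. Whether the days differ was not tested, because the same contrast chose the genes. Skin is a mixture of cells, and in such data more cells of a type and more RNA per cell cannot be told apart.

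**Figure D2:**
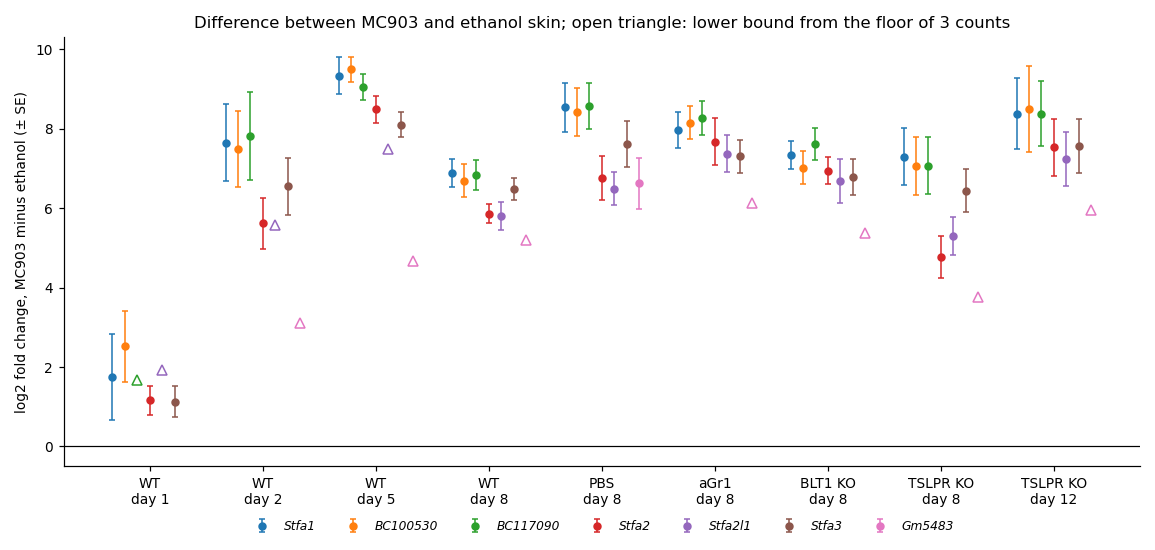
The y axis is the fitted log2 fold change of MC903 over ethanol skin (± SE) and the x axis the 9 skin groups, with 1 colour for each member. Open triangles are lower bounds for members that were undetectable in ethanol skin. At day 1 the values lie between 1.12 and 2.52, and in all other groups the fitted values lie between 4.78 and 9.50.

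The difference was present in each of the other conditions. In PBS-injected mice the 2 MC903 libraries had 6025 and 2029 cpm of BC100530 and the 3 ethanol libraries 10.1, 16.1 and 9.64, a log2 fold change of 8.42 ± 0.61. In aGr1-injected mice the MC903 libraries had 3343, 2744, 3713 and 5509.7 cpm of BC100530 and the ethanol libraries 11.9, 5.16, 17.7 and 8.87 (8.16 ± 0.42). In BLT1 KO mice they had 219.7, 252 and 364 cpm against 1.19, 3.04 and 2.14 (7.02 ± 0.42). The groups did not overlap in any of the 3. In TSLPR KO mice the day 8 values were 743, 220.0 and 203 cpm against 3.77 and 2.05 (7.06 ± 0.72). At day 12 they were 1959, 2577, 4714 and 2296 cpm against 15.7, 3.45 and 1.001 (8.50 ± 1.08). In both TSLPR KO groups 1 MC903 library stood above the rest. All 7 members had groups that did not overlap in each of these conditions, against 20.1% of all genes in PBS, 22.4% in aGr1, 22.9% in BLT1 KO, 15.3% in TSLPR KO at day 8 and 14.6% at day 12. The median log2 fold change of the members was 7.62, 7.96 (7.67 with Gm5483 at its bound), 6.94, 6.44 and 7.57 in that order. Without MC903 library 1 the PBS median was 6.78, and without ethanol library 1, the highest of its group, the day 12 median was 9.99.

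The other members of these groups went with BC100530 to different degrees. Stfa1 had 1851 and 676 cpm with MC903 in PBS mice, 972, 836, 1134 and 1762 in aGr1 mice, and 127.95, 147 and 211 in BLT1 KO mice. It had 402, 125.55 and 102 cpm in TSLPR KO mice at day 8, and 529, 663, 1208 and 624 at day 12. Its libraries stood in the same order as those of BC100530 in all 5 conditions. The lowest fitted value in any group from day 2 on was that of Stfa2 in TSLPR KO mice at day 8, with 71.6, 35.6 and 31.1 cpm against 0.933 and 2.39 (4.78 ± 0.53). Stfa2l1 was the next lowest there, with 7.61, 6.12 and 4.98 cpm against 0.104 and 0.208 (5.29 ± 0.48). Stfa3 in TSLPR KO mice at day 12 reached 700.1, 1058, 1881 and 768 cpm, against 8.53, 4.66 and 1.87 with ethanol.

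The question behind the aGr1 injections was what neutrophils contribute to the model, and the comparison of aGr1 with PBS skin of the same treatment was not used to choose the members. None of the 7 members was called between aGr1 and PBS MC903 skin by edgeR's quasi-likelihood test (0 called of 7, where 0.213% of 26712 genes were called). No member had an unadjusted p under 0.05, and DESeq2 also called 0. BC100530 differed by 0.01 on the log2 scale (95% interval -0.95 to 0.97), Stfa1 by -0.02 (-1.02 to 0.98), and BC117090 by 0.26 (-0.69 to 1.204). Stfa2 differed by 0.07 (-1.12 to 1.26), Stfa2l1 by 0.32 (-0.50 to 1.14, adjusted p = 0.815), Stfa3 by -0.19 (-1.15 to 0.78) and Gm5483 by -0.01 (-0.90 to 0.88). The intervals are wide, with 2 PBS libraries at 6025 and 2029 cpm of BC100530, and changes within them were not detectable. Neutrophil marker genes were not called either. None of 21 markers was called by edgeR in either direction (5 had an unadjusted p under 0.05, and DESeq2 called 1), and their sums were 480.3 to 622 cpm with aGr1 and 567 to 703 with PBS. The log2 difference was negative for 10 of the 21, with a median of 0.06. Csf3r, the receptor for the neutrophil growth factor G-CSF, was at 10.2 ± 3.0 cpm (SD, n = 4) with aGr1 and 16.8 ± 1.2 (SD, n = 2) with PBS, a log2 difference of -0.64 (adjusted p = 0.361). Cxcr2, a chemokine receptor of neutrophils, differed by -0.58 (adjusted p = 0.489). Of the 5 markers with an unadjusted p under 0.05, Csf3r, Fpr2 (-0.92) and Trem1 (-1.24) were lower with aGr1. Ngp (3.90, with at most 5 counts in any PBS library) and Itgam (0.49) were higher. Among markers with more counts, S100a8 (-0.79) and S100a9 (-0.90) were lower with aGr1, and Mmp9 (0.52) and Padi4 (0.39) higher, none of them called. Ly6g, which encodes a defining surface protein of neutrophils, had at most 5 counts in any of these libraries. The extent of neutrophil depletion was not otherwise measured in these libraries. The study counted cells by flow cytometry. It reported fewer neutrophils in day 8 MC903 skin with aGr1 than in that of uninjected and PBS mice pooled. In blood, too, it reported fewer with aGr1 than with PBS.

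In ethanol skin no member was called between aGr1 and PBS either (0 of 7, where 1.91% of genes were called; no member had an unadjusted p under 0.05, and DESeq2 called 0). Stfa2 had the largest difference, with 2.09, 0.585, 4.93 and 0.696 cpm with aGr1 and 4.13, 2.18 and 7.47 with PBS, a log2 difference of -0.87 (-1.97 to 0.23, adjusted p = 0.317). These groups overlapped. Without aGr1 ethanol library 3, the highest of its group, it was called at -1.53 (adjusted p = 0.0484). When uninjected wild-type skin took the place of PBS, all 7 members were called higher with aGr1 in MC903 skin. The log2 differences ran from 0.90 (Stfa2l1) to 3.32 (BC100530). In ethanol skin 3 were called (Stfa1, BC100530 and BC117090). PBS skin held these higher levels too. The share of all genes called in that fit is not given here, so these counts do not set the members apart from other genes. The injected and uninjected libraries also differed in how counts were split among copies, with 3.13 to 3.44 counts of BC100530 per Stfa1 count in aGr1 MC903 skin and 1.60 to 1.71 in uninjected wild-type.

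**Figure D3:**
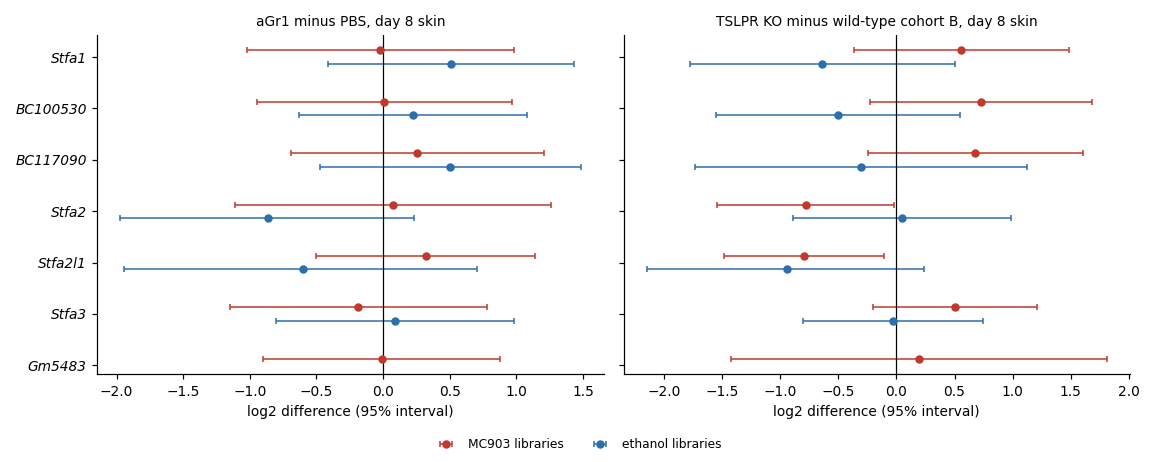
The x axis is the log2 difference between 2 groups of the same treatment (left, aGr1 minus PBS, right, TSLPR KO minus wild-type cohort B, day 8 skin), with bars for the 95% interval and 1 row for each member. Red is MC903 skin and blue ethanol skin. On the left every interval includes 0. On the right, Stfa2 and Stfa2l1 in MC903 skin lie below 0 with intervals that reach -0.02 and -0.11.

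TSLP, made by keratinocytes, is a trigger of the type 2 immune response in this model, and its receptor is missing in the TSLPR KO. No member was called between TSLPR KO and wild-type cohort B in MC903 skin of day 8 (0 of 7, where 0.0655% of 25942 genes were called, and 0 by DESeq2). Stfa2 and Stfa2l1, the pair, were the 2 members with an unadjusted p under 0.05. Stfa2 had 71.6, 35.6 and 31.1 cpm in the knockout and 63.9 and 87.4 in wild-type, a log2 difference of -0.78 (95% interval -1.54 to -0.02, adjusted p = 0.684). Stfa2l1 had 7.61, 6.12 and 4.98 cpm against 8.42 and 12.4, a log2 difference of -0.79 (-1.48 to -0.11, adjusted p = 0.654). For Stfa2l1 the groups did not overlap and for Stfa2 they did. The trio and Stfa3 pointed the other way, with log2 differences of 0.56 (Stfa1), 0.73 (BC100530), 0.68 (BC117090) and 0.50 (Stfa3), all with intervals that include 0 and adjusted p of 0.704 to 0.738. In each of these, knockout library 1 was the highest, with 743 cpm of BC100530 where the other 2 had 220.0 and 203 and wild-type had 208 and 238. Gm5483 differed by 0.19 (-1.42 to 1.81). In ethanol skin 0 of 7 members were called (0.0385% of genes, none with an unadjusted p under 0.05, 0 by DESeq2), with differences between -0.94 (Stfa2l1) and 0.05 (Stfa2).

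The effect of MC903 itself can be set side by side in the same fits, as a description. Its log2 size in TSLPR KO minus that in wild-type cohort B was 1.23 ± 0.66 for BC100530, 1.19 ± 0.68 for Stfa1 and -0.83 ± 0.56 for Stfa2 (SE). In aGr1 minus PBS mice it was -0.22 ± 0.59 for BC100530, -0.53 ± 0.63 for Stfa1 and 0.94 ± 0.76 for Stfa2.

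Outside skin the members had few counts. Between ethanol-treated mice of day 8, skin had more than trigeminal ganglion of all 6 members that could be tested (6 called higher, where 31.3% of 27791 genes were called higher in skin). Stfa3 was at 1.61 to 4.56 cpm in 6 skin libraries and 0 to 0.421 in 5 ganglion libraries, a log2 difference of 3.96 (95% interval 2.37 to 5.60, adjusted p = 0.000161). BC100530 differed by 3.25 (1.54 to 4.98, adjusted p = 0.00190), Stfa1 by 3.38 (1.52 to 5.30), Stfa2 by 3.38 (1.93 to 4.89) and BC117090 by 2.70 (1.004 to 4.52, adjusted p = 0.00791). Stfa2l1, at 2 counts or fewer in every ganglion library, was at least 2.83-fold higher in skin (adjusted p = 0.00584). Against spinal cord of mice treated on the back, so that tissue and site of treatment cannot be told apart, all 6 were called again (31.1% of genes): BC100530 by 5.11 (3.14 to 7.20) and Stfa1 by 4.79 (2.70 to 7.07), Stfa3 at least 31.5-fold, Stfa2 at least 17.8-fold, BC117090 at least 5.14-fold and Stfa2l1 at least 2.73-fold. Gm5483 was at 2 counts or fewer in each of these libraries. A gene entered this fit by its counts summed over skin, ganglion and cord, and Gm5483 did not reach the minimum. Stfa2 had 0 counts in every ethanol cord library, and Stfa3, BC117090 and Stfa2l1 had at most 3 in any. Stfa1 had 8 counts in ethanol cord library 4 and 0 in every other. Its log2 difference ran from 4.42 to 8.81 with single libraries left out. These members entered through other tissues, so against cord they could hardly come out other than higher in skin. Against ganglion the same holds for Stfa2l1. The counts of 6 thus partly reflect the filter. The ganglion counts came mostly from the 2 ethanol libraries of cohort A, with 22 and 24 counts of BC100530, whereas the other 3 had 7, 0 and 0. Keratinocyte genes summed to 130.5 and 115.4 cpm in those 2 and to 19.6 to 109 in the other 3, and their part in the result was not tested.

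No change of the members with MC903 was detectable in either nervous tissue. In trigeminal ganglion of day 8, 5 members were tested and 0 called at the study's threshold of 0.1 (0.0195% of 25600 genes were called, none of the 5 had an unadjusted p under 0.05, and DESeq2 gave no adjusted p for any). BC100530 had 14, 19, 0, 0 and 0 counts with MC903 and 22, 24, 7, 0 and 0 with ethanol, a log2 difference of -0.61 (95% interval -3.56 to 2.32). With MC903 both libraries with counts were those of cohort A, as were the 2 highest with ethanol. This fit held no cohort term, so that the difference between cohorts is part of its error. In spinal cord of back-treated mice 2 members reached 10 counts and 0 were called (12.2% of 25585 genes were, both members had an unadjusted p under 0.05, and DESeq2 gave no adjusted p). For BC100530 all 4 MC903 libraries were at 0 counts and 2 of 5 ethanol libraries had 10 and 3, and for Stfa2l1 the MC903 libraries had 1, 2, 9 and 0.

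**Figure D4:**
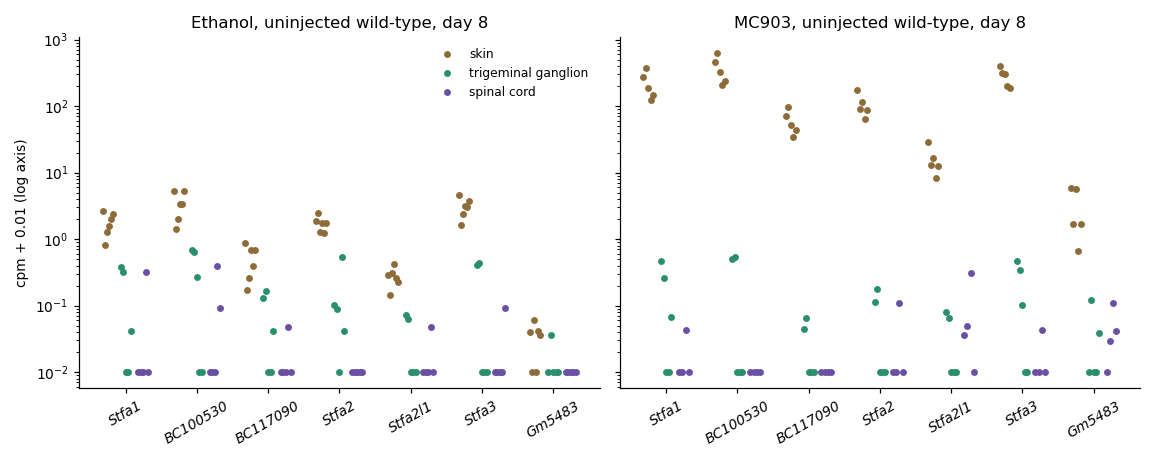
The y axis is cpm + 0.01 on a log axis and the x axis the 7 members, in uninjected wild-type mice of day 8 (left ethanol, right MC903), each point 1 library. Skin lies above both nervous tissues in every member but Gm5483 on the left, and the nerve values are at most 0.674 cpm with either treatment.

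Levels can be compared between members only per length of transcript. In MC903 skin of wild-type day 8, cpm per kilobase of annotated exon was highest for Stfa3, at 686 ± 215 (SD, n = 5), then BC100530 at 470.0 ± 219, Stfa1 at 310.3 ± 143, Stfa2 at 225 ± 88, BC117090 at 154 ± 64, Stfa2l1 at 37.8 ± 18.4 and Gm5483 at 1.67 ± 1.32. The ranges of neighbours in this order overlapped for the first 5, from 453 to 978 for Stfa3, 263 to 793 for BC100530, 171 to 523 for Stfa1, 136 to 367 for Stfa2 and 89.8 to 250.1 for BC117090. Stfa2l1 (20.1 to 68.1) and Gm5483 (0.349 to 3.12) lay below the ranges above them. In ethanol skin Stfa3 also led, at 7.42 ± 2.48 cpm per kilobase (SD, n = 6), before BC100530 at 4.38 ± 2.03 and Stfa2 at 3.67 ± 0.97. Stfa3 is also the member with no stretch shared with another gene, and reads lost to copies in the others were not measured. Per kilobase of unshared sequence, where each start of a 50-base stretch found in no other gene counts as a base, the same MC903 libraries had 778 ± 244 cpm of Stfa3 and 737 ± 344 of BC100530, so that the lead of Stfa3 nearly closed. On this scale Stfa1 was at 401 ± 184 cpm, Stfa2 at 298 ± 116.8 and BC117090 at 265 ± 110.03.

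The split of counts among the copies differed between series of libraries. In MC903 skin, BC100530 had 1.34 to 1.40 counts per Stfa1 count at day 2, 1.58 to 1.59 at day 5 and 1.60 to 1.71 at day 8. In BLT1 KO skin the ratio was 1.71 to 1.72 and in TSLPR KO skin of day 8 it was 1.75 to 2.002. In PBS skin it was 3.002 to 3.26, in aGr1 skin 3.13 to 3.44, and in TSLPR KO skin of day 12 it was 3.68 to 3.90. The last 3 groups were thus apart from the first 5 with no overlap, and they were also the 3 groups with the highest summed level of the members, 3561 to 10219 cpm in MC903 skin against 419 to 1835 in the others from day 2 on. Ethanol libraries with 100 or more counts of Stfa1 were rare, but showed the same high ratio in those groups, 2.83 and 2.83 in aGr1, 3.22 in PBS and 3.64 in TSLPR KO at day 12. How these libraries differ in preparation or reads is not given in the sources used here, and its part in the ratio was not tested. A difference in level between these groups and the rest, that between aGr1 and uninjected skin included, cannot be told apart from this difference between libraries.

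**Figure D5:**
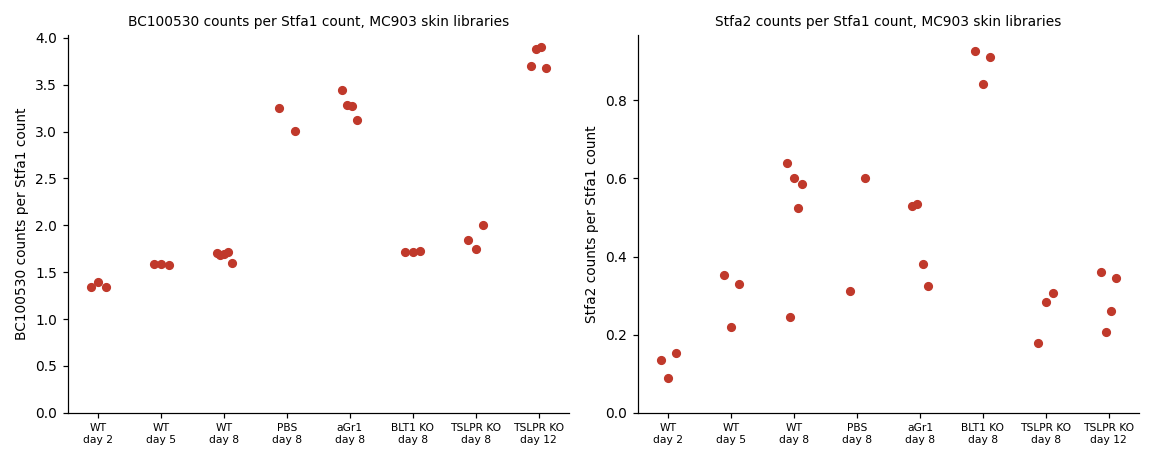
The y axes are BC100530 counts (left) and Stfa2 counts (right) per Stfa1 count and the x axis the 8 skin groups from day 2 on, each point 1 MC903 library. On the left the first 3 groups rise from 1.34 to 1.71 and PBS, aGr1 and day 12 TSLPR KO lie at 3.002 or above. On the right the values go from 0.0900 to 0.926, with BLT1 KO highest.

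The ratio of the pair to the trio varied in another way. Stfa2 had 0.0900 to 0.153 counts per Stfa1 count at day 2, 0.219 to 0.353 at day 5 and 0.246 to 0.640 at day 8 of wild-type skin. It was 0.842 to 0.926 in BLT1 KO, 0.178 to 0.306 in TSLPR KO at day 8, 0.311 and 0.600 in PBS and 0.326 to 0.533 in aGr1. Day 2 lay below every other group and BLT1 KO above every other group. Stfa1 and Stfa2 are 78.5% identical in their coding bases, and share no stretch of 50 bases. Across the 27 MC903 libraries from day 2 on, log2 levels of the trio went together closely (Pearson's r of 0.99 for BC100530 and BC117090, 0.99 for Stfa1 and BC117090 and 0.98 for Stfa1 and BC100530). Stfa2 and Stfa2l1 had an r of 0.85, whereas Stfa3 and Stfa2l1 had one of 0.41. The trio and the pair each share sequence, and all points share the series of libraries just described, so that these values are a description.

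Other genes lie between the members. Gm5416, annotated as protein coding between Gm5483 and Stfa1, was at 14.1 to 59.05 cpm with MC903 and 0.174 to 0.757 with ethanol in wild-type day 8, a log2 fold change of 6.32 ± 0.24. 2010005H15Rik, the next protein-coding gene, was at 0.821 to 3.64 cpm against 0 to 0.126, a log2 fold change of 5.62 ± 0.53. Gm15845, on the strand opposite to BC100530 and overlapping it, was at 1.28 to 3.22 cpm against 0 to 0.101 (6.16 ± 0.56), and as the strand setting of the counting is not stated, its reads cannot be told apart from those of BC100530. The pseudogene Gm10913 was at 0.144 to 0.790 cpm against 0.101 to 0.510, with groups that overlapped (0.51 ± 0.44). The pseudogene Gm7260 and the snRNA genes Gm24801, Gm23306, Gm24437, Gm25465, Gm24218 and Gm22349 had few or no counts in wild-type day 8. In MC903 skin of PBS, aGr1 and day 12 TSLPR KO mice, Gm25465 averaged 0.963, 0.724 and 0.629 cpm, and Gm23306 0.377, 0.349 and 0.299. Elsewhere both averaged 0.0353 cpm or less. PBS, aGr1 and day 12 TSLPR KO skin also had the high ratio of BC100530 to Stfa1 counts. The cause was not tested.

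Cystatins elsewhere and the proteases they block were tested by a list. Of 15 other cystatin genes in the files, 9 could be tested in wild-type day 8 skin. Of these, 5 were higher with MC903 and 0 lower by edgeR's quasi-likelihood test (12.2% and 11.2% of all genes were called in each direction, and DESeq2 also called 5 and 0). Csta1, the stefin A gene just outside the cluster, rose from 31.99 ± 6.4 (SD, n = 6) to 472 ± 208 cpm (SD, n = 5), a log2 fold change of 3.79 ± 0.24 (adjusted p = 3.39e-07). In ethanol skin its mean per kilobase of exon, 11.5 ± 2.28 cpm (SD, n = 6), was above that of every member, and its fold was lower than that of every member. Fetub and Ahsg, the fetuins known from liver and blood, rose by 4.61 ± 0.30 and 4.32 ± 0.80, from levels under 1 cpm. Cst7, the cystatin of leukocytes, rose by 1.26 ± 0.24 and Cstb, the gene of stefin B, by 0.96 ± 0.23 (adjusted p = 0.00931). Cst6, a cystatin of the epidermis, was at 2228 ± 845 and 1813 ± 463 cpm and was not called (0.30 ± 0.24, adjusted p = 0.422). The median of the 9 was 1.06, against -0.03 over all genes.

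Of 11 cathepsins and related proteases, 5 were higher and 0 lower at day 8 (0 to 1 lower when single libraries were left out). Ctss, the cathepsin of antigen-presenting cells, rose by 1.57 ± 0.23 (adjusted p = 0.000398), Lgmn, an asparagine-specific lysosomal protease, by 1.37 ± 0.14, and Ctsl, which keratinocytes make, by 0.83 ± 0.21 to 1157 ± 171 cpm. Ctsc, which activates proteases of neutrophil granules, rose by 0.63 ± 0.11 and Ctsz by 0.42 ± 0.13. All 5 log2 fold changes were below that of every member. Ctsb, a further lysosomal protease, was at 1190.5 ± 165 and 1201 ± 357 cpm (-0.01 ± 0.20). In cohort A alone 2 were called higher and 1 lower. At day 5 the lists gave 4 cystatins higher and 1 lower of 10 (8.15% and 6.78% of all genes), with Csta1 at 5.07 ± 0.33, Fetub at 4.88 ± 0.42, Ahsg at 2.79 ± 0.67, Cstb at 1.66 ± 0.18 and Cst10 at -5.65 ± 1.47 (adjusted p = 0.0384). Cst10 was at 1287 ± 924 cpm with ethanol and 30.9 ± 45.8 with MC903 (SD, n = 3 each), and leaving out any library but MC903 library 3 ended its call. Of the cathepsins 5 were higher at day 5, with Ctsl first at 2.24 ± 0.21, and 1 lower (Ctsw, known from lymphocytes, -2.09 ± 0.54). With 1 library left out the number higher was 1 (MC903 library 1 or 2, or ethanol library 2), 2 (ethanol library 1), 3 (MC903 library 3) or 5 (ethanol library 3), and the number lower 3 without ethanol library 3 and 0 without any other.

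Likeness to the summed cpm of the members over the 61 skin libraries was ranked among 17631 genes with a mean of 1 cpm or more. The members and the genes between them, Gm5416 included, were left out of this ranking. The closest gene was Csta1 (Pearson's r = 0.97 on log2 of cpm + 0.5). After it came Rbp2, a retinol carrier (0.95), Sprr2b and Lce3f, which encode cornified envelope proteins (0.95 each), Sh2d5 (0.95), Sprr2a3, another envelope gene (0.95), Akr1d1, a steroid reductase (0.95), Gm11597 (0.95), Mmp13, a collagenase (0.94), and 2610528A11Rik (0.94). In wild-type day 8 skin Sprr2a3 was at 483 cpm with MC903 and 4.02 with ethanol, and Rbp2 at 112.1 and 5.19. By Spearman's correlation 4 of these 10 were again among the first 10. Taken one by one, Csta1 was closest to Stfa1, BC100530 and BC117090, Sh2d5 to Stfa2 (0.97), Rbp2 to Stfa3 (0.97), Sprr2g, a further envelope gene, to Stfa2l1 (0.98), and Chil3, made by myeloid cells, to Gm5483 (0.93). All these libraries fall into MC903 and ethanol groups, so that any gene with a large difference between them scores high.

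Markers of the cells that could carry the transcripts moved along to different degrees. Keratinocyte genes summed to 13964 to 16920 cpm in ethanol and 32814 to 60284 cpm in MC903 skin of wild-type day 8, and a list of 28 cornified envelope genes to 9227 to 46251 and 11685 to 19125 cpm. Neutrophil genes (22) summed to 173 to 266 cpm and 292 to 729 cpm. The highest of them in this MC903 skin were Mmp9, S100a8 and Padi4. In ethanol skin of PBS mice, Il1r2 was at 60.7 ± 19.9 cpm and Padi4 at 51.1 ± 39.8 (SD, n = 3). Cxcr2 and Csf3r were at 6.24 ± 2.23 and 2.78 ± 0.33 cpm there. The neutrophil sums thus rest largely on a few genes, and whether they follow the number of neutrophils was not tested. In MC903 skin of wild-type day 8, Tchh led the envelope genes at 5767 ± 3516 cpm (SD, n = 5), before Rptn at 2635 ± 536. The keratinocyte genes were led by Krt14 at 10637 ± 3525, Krt6b at 7890 ± 3140 and Krt6a at 7835 ± 2372. Whether these sums follow the number of such cells was not tested either. At day 2 the neutrophil sum was 129.04 to 222 cpm with MC903 and 210.0 to 280.5 with ethanol, and the keratinocyte sum 8393 to 21509 and 11336 to 15815. In TSLPR KO skin of day 8, where the members summed to 561 to 1835 cpm with MC903, the neutrophil sum was 262 to 352 cpm with MC903 and 223 to 244 with ethanol. The part of any cell type in the level of the members was not tested.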

How the data were processed

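RNA of skin (70 libraries), trigeminal ganglion (65) and spinal cord (27) was sequenced with single reads of 50 bases after poly(A) selection. The authors aligned reads to mm10 with Bowtie2 and TopHat and deposited raw counts per gene made with HTSeq. Versions, the annotation release and the strand setting are not given in the sources used here. Of 46078 Ensembl identifiers, 45229 matched GENCODE M21 and gave symbols. The tally lines of HTSeq were left out. Reads with no feature or an ambiguous one were 9.882% to 20.521% of these and the gene counts together in skin. Depth was 15931871 to 67342879 counts.

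The members and lists were chosen with earlier results of these data known. Genes with 10 or more counts over the libraries of a comparison were fitted with edgeR 4.0.16 (TMM factors, quasi-likelihood test, R 4.3.3). Benjamini-Hochberg adjustment was over all genes tested. A cohort term was used for MC903 against ethanol in wild-type day 8 skin, and none in ganglion or between tissues. The threshold was an adjusted p of 0.05, or 0.1 in ganglion, as in the study, which used DESeq. DESeq2 1.42.0 was an alternative. Intervals are at 95%. Where a group had at most 3 counts in every library, a lower bound of the fold against 3 counts per library replaced the fitted fold. Such bounds cover counting error only. Named were the members, the genes between them, list members that passed, defining neutrophil genes, and the 10 most similar genes. Neutrophil markers with an unadjusted p under 0.05 between aGr1 and PBS MC903 skin were named too, as were markers that made up much of the neutrophil sums. Same-numbered libraries were checked for pairing by the correlation of their deviations from group means, which was -0.41 to 0.40 over 9 comparisons, so the numbers were not taken as pairs. No 2 libraries were identical. The fits were tested on simulated data with 200 changed genes. Other alternatives were other size factors, other filters, each library left out, each cohort alone, other control groups and Spearman's correlation.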

Additional observations from a re-analysis of the deposited data

Results flagged for a closer look

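Of 57 combinations of a member and a group of 4 to 10 libraries, 11 held 1 library far from the others by Dixon's criterion. Its rate of about 1 in 20 holds for independent values with a normal spread. The members share libraries and some had counts near 0, so 11 of 57 cannot be set against that rate. At day 1, MC903 library 2 was flagged in 4 members, with 5.65 cpm of Stfa1, 10.9 of BC100530, 0.890 of Stfa2l1 and 0.314 of Gm5483, where the nearest other library had 0.402, 1.40, 0.415 and 0.0519. In ethanol skin of that day, library 4 had 1.04 cpm of BC100530, with the next at 0.456. In TSLPR KO skin of day 12, MC903 library 3 had 10.7 cpm of Gm5483, with the next at 2.76. The other 5 lay in nervous tissue at low counts. Spinal cord ethanol library 4 had 0.308 cpm of Stfa1 and 0.385 of BC100530, and MC903 library 3 had 0.296 of Stfa2l1. Ganglion ethanol library 2 had 0.528 cpm of Stfa2 and MC903 library A2 had 0.112 of Gm5483.

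Wild-type libraries of day 12, which no comparison used, held members where the labels would not place them. The libraries labelled ethanol skin 2 and 5 had 5326 and 4783 cpm of the members in sum, with 53425 and 48874 cpm of keratinocyte genes. The libraries labelled MC903 trigeminal ganglion 1, 2 and 3 had 5382, 4881 and 4229 cpm, with 57543 to 64651 cpm of keratinocyte genes and 3.59 to 4.78 cpm of sensory neuron genes. Of the 9 libraries labelled wild-type skin of day 12, 6 had 6588 to 7234 cpm of neuron genes and 19.5 to 26.1 cpm of keratinocyte genes, and the library labelled MC903 skin 1 had 6.83 cpm of the members beside 17347 cpm of keratinocyte genes. These values go against the labels of tissue or treatment, and no library was reassigned.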

How the results depend on the processing

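With MC903 against ethanol, the median log2 fold change of the members at wild-type day 8 was 7.14 in cohort A alone and 5.84 in cohort B alone. Leaving out single libraries moved the medians between 0.71 and 2.33 at day 1, 8.29 and 9.27 at day 5, 6.78 and 8.14 in PBS, 6.66 and 7.39 in BLT1 KO and 7.30 and 9.99 in TSLPR KO at day 12, and the day 1 count of members without overlap between 2 and 5. Stfa1 at day 1 ranged from -0.42 (without MC903 library 2) to 2.78. With uninjected wild-type in place of PBS, 7 members were called in MC903 skin and 3 in ethanol skin (share of all genes not given). Stfa1 (2.37), Stfa3 (1.19) and Gm5483 (1.41) changed sign. The number called in ethanol skin was 0 to 1 with single libraries left out. For the lists, cathepsins lower at day 5 were 2 and at day 8 were 1 under filterByExpr and under DESeq2, and cohort A alone gave 2 higher and 1 lower at day 8. With single libraries left out, cystatins lower at day 5 were 0 to 1, cathepsins higher 1 to 5 and lower 0 to 3, and cathepsins lower at day 8 were 0 to 1. By Spearman's correlation 4 of the 10 similar genes remained. The cause was not tested. With the replicate block the medians were 1.30 (day 1), 6.88 (day 2), 8.50 (day 5), 7.36 (PBS), 7.98 (aGr1), 6.92 (BLT1 KO), 6.59 and 7.81 (TSLPR KO, days 8 and 12), and 0 members were called between same-treatment groups. No block was fitted in wild-type day 8, ganglion or between tissues, where numbers repeat. In all, 134 values under alternatives and 259 with a library left out were counted as unchanged. For medians this meant the same direction and a shift below the spread between libraries. For counts small changes were allowed, such as 4 to 5 cathepsins higher at day 8 with single libraries left out. Values of single genes are not in these totals. Low counts limit Gm5483 and the nervous tissues most.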
